A study of Mus musculus with 7 samples.

Results

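Macrophage expression of the vascular endothelial growth factor (VEGF) genes, their receptors and a set of hypoxia genes was followed in the injured sciatic nerve. The set held 10 genes, taken by symbol from the 23361 genes quantified: the ligands Vegfa, Vegfb and Vegfc, the receptors Kdr and Flt1, the co-receptors Nrp1 and Nrp2, and the hypoxia genes Hif1a, Egln3 and Adm. All 10 passed the expression filter, so every one was tested.

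RNASeq was performed on macrophages flow-sorted from the tissue that bridged a transected and repaired sciatic nerve inside a conduit. The sort kept F4/80+ CD14+ CD11b+ CD16/32+ cells and removed cells bearing lineage markers, among them the endothelial protein CD31. All animals were wild-type BALB/cJ mice, an inbred strain, with the same injury and repair. Day 5 after repair was covered by 3 libraries and days 14 and 28 by 2 each, with no uninjured nerve among them. For days 14 and 28 this is fewer than the number per group that the study states. The age of the mice, and whether a library came from 1 animal or a pool, was not given in the sources used here. The p-values therefore measure the spread between libraries, which may be partly technical. The libraries held 18027190 to 35247116 fragments assigned to genes, and 3 fragments, taken as the lower limit of detection, were 8.51e-06% to 1.66e-05% of a library, counting error only. Listed macrophage marker genes, not all of them sort markers (Csf1r, Emr1, Cd68, Cd14, Itgam, Fcgr1, Fcgr3 and Mertk), summed to 3597 to 5946 FPKM in the 7 libraries. None of the 8 was at 0. FPKM counts fragments per length of transcript and depth of library, so that levels can be compared between genes. The 2 day 14 libraries differed from each other. Over 7613 expressed genes, replicate 1 lay at a root mean square log2 distance of 0.372 from the day 5 mean and 0.487 from the day 28 mean, while replicate 2 lay at 0.545 and 0.339. In bulk libraries such as these, fewer cells of a type and less RNA per cell cannot be told apart.

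VEGF ligands are secreted proteins that drive the growth of blood and lymphatic vessels. Vegfa and Vegfb bind the tyrosine kinase receptor encoded by Flt1 (VEGFR1), Vegfa also binds that encoded by Kdr (VEGFR2), and neuropilins hold VEGF and semaphorin ligands at the cell surface. In low oxygen the transcription factor HIF escapes hydroxylation by prolyl hydroxylases, binds DNA at the core motif ACGTG or GCGTG and raises the transcription of genes such as Vegfa, Egln3, Adm and those of glycolysis. After nerve transection, hypoxic macrophages in the bridge are known as a source of VEGF-A for the vessels that grow into it.

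The promoter sequences of the called genes, Egln3 and Kdr, and of the most abundant ligand, Vegfa, are shown because they hold the HIF core motif to different extents. They are the 250 bases before the transcription start of RefSeq (build GRCm38.p6) at chr12:54203875-54204124 for Egln3, chr5:75978456-75978705 for Kdr and chr17:46032378-46032627 for the first start of Vegfa. Each lies on the minus strand and is written 5' to 3' along its gene, and capitals mark ACGTG or GCGTG.
Egln3: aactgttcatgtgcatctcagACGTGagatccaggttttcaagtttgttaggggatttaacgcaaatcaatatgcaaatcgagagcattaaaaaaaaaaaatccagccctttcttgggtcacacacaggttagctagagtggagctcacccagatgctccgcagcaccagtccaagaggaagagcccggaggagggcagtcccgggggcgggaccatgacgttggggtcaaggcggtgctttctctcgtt
Kdr: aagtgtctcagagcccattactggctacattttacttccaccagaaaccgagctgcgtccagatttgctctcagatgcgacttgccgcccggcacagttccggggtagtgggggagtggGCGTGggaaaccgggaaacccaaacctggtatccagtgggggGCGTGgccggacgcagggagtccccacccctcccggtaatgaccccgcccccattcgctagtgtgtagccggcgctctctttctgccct
Vegfa: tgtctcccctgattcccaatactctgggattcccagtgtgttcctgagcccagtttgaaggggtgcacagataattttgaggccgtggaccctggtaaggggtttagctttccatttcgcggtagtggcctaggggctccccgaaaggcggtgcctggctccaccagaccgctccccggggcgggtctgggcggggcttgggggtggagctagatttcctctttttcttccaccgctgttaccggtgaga
Egln3 held ACGTG at -229 to -225 from the start, and Kdr held GCGTG at -131 to -127 and again at -89 to -85. The first Vegfa start had no match. The motif was searched on both strands as ACGTG and GCGTG, in windows of 300 bases around the start that also take in the first 50 bases of the gene. ACGTG lay in 19.6% of the 32851 mouse windows, GCGTG in 32.4%, and either in 43.8%. Of the 10 genes, 9 held either motif in a window, 3 held ACGTG and 7 held GCGTG. Hif1a held ACGTG at -134 to -130 and at -70 to -66, and the first of these overlapped a CACGT, the same motif on the other strand, at -135 to -131. Vegfa held both motifs only in the window of its second start, and Vegfc held neither. The 250 bases before that second start, at chr17:46025164-46025413, lie inside the Vegfa gene, downstream of its first start. Vegfa enters the counts of 9, 3 and 7 only through that window. A match describes these letters only and is no evidence of binding. Bases outside the windows were not searched, so a start without a match may have the motif elsewhere.

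The ligand Vegfa was among the most abundant transcripts of these cells at every time point (chromosome 17, 46016993 to 46032369, minus strand, GRCm38). Its level was 212, 195 and 236 FPKM in the day 5 libraries, 162 and 193 FPKM at day 14, and 247 and 207 FPKM at day 28. By mean level it ranked 440, 480 and 358 of 23361 genes at days 5, 14 and 28. Both day 14 libraries lay under all others, replicate 2 only just. None of the differences passed the test. On the log2 scale the difference was -0.26 at day 14 against day 5 (SE 0.14, adjusted p = 0.306), 0.36 at day 28 against day 14 (SE 0.16, adjusted p = 0.404) and 0.10 at day 28 against day 5 (SE 0.14, adjusted p = 0.687). The 95% interval of the last ran from -0.23 to 0.42. These values are sums over transcripts and do not separate the splice forms of Vegfa.

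Vegfb, which binds Flt1 and neuropilin 1 (chromosome 19, 6982473 to 6987651), was far below Vegfa. It was measured at 20.2, 14.1 and 15.4 FPKM at day 5, 22.0 and 14.2 FPKM at day 14, and 8.10 and 11.2 FPKM at day 28. Both day 28 libraries were below the other 5, and days 5 and 14 overlapped. From day 5 to day 28 the log2 fold change was -0.81 (SE 0.25) with an adjusted p of 0.0548 by edgeR, which missed the threshold of 0.05. From day 14 to day 28 it was -0.92 (SE 0.27, adjusted p = 0.214). The former was called without day 14 replicate 1 (adjusted p = 0.0172) or replicate 2 (0.017), and the latter without day 14 replicate 2 (-1.21, adjusted p = 0.0229). Within a library the FPKM of Vegfa was 10.5 to 15.3 times that of Vegfb at day 5, 7.38 to 13.6 times at day 14 and 18.6 to 30.5 times at day 28. The day 28 ratios thus lay above all others.

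Vegfc, a ligand mainly of lymphatic endothelium (chromosome 8, 54077606 to 54187096), was close to the limit of detection. The libraries held 4, 3 and 7 fragments of it at day 5, 8 and 10 at day 14, and 9 and 18 at day 28, or 0.0867 to 0.556 FPKM. The log2 fold change from day 5 to day 28 of 1.40 had an SE of 0.82 (adjusted p = 0.278), and no change was detectable at this depth.

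**Figure D1:**
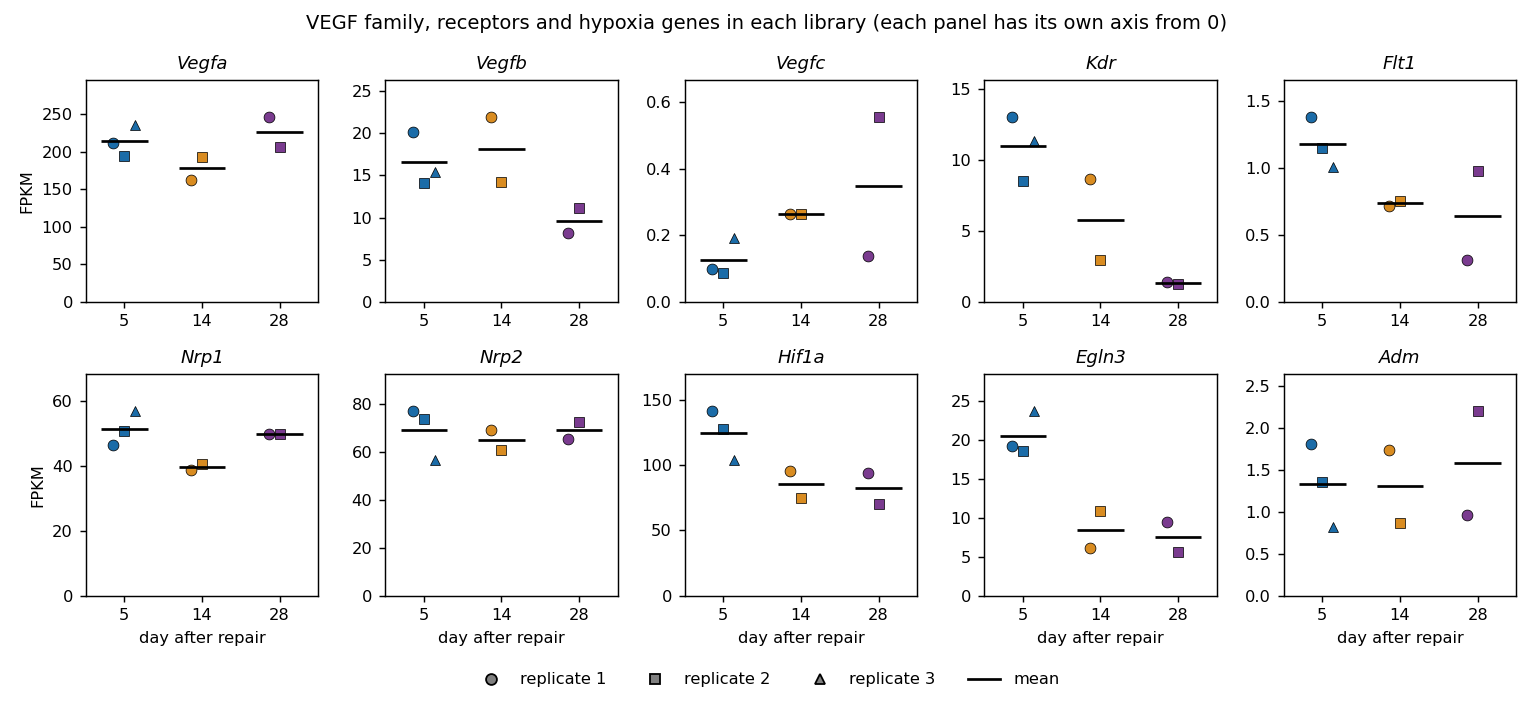
FPKM (vertical axes, each from 0) of the 10 genes against the day after repair (horizontal axes), with 1 point per library, its shape giving the replicate number, and a line at the mean of each time point. Kdr falls from 8.50 to 13.1 FPKM at day 5 to 1.27 and 1.39 FPKM at day 28, Egln3 is lower in all 4 later libraries, and Nrp2 stays between 56.4 and 77.0 FPKM.

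The receptor gene Kdr fell the most of the 10 genes. It encodes VEGFR2, the main signalling receptor for VEGF-A in endothelium (chromosome 5, 75932827 to 75978458, minus strand). Its level was 13.1, 8.50 and 11.3 FPKM at day 5, 8.64 and 2.91 FPKM at day 14, and 1.39 and 1.27 FPKM at day 28. Both day 28 libraries lay under all others, while day 14 replicate 1 lay within the day 5 range and replicate 2 between days 5 and 28. The mean fell from 10.96 ± 2.30 FPKM (SD, n = 3) to 1.33 ± 0.0904 FPKM (SD, n = 2), which is 8.24-fold. On the log2 scale Kdr fell by 3.02 (SE 0.42, adjusted p = 0.0029, edgeR). The depth behind the lowest value, 128 fragments, was well above the limit of detection. Kdr was called in all 16 alternative analyses of the comparison of day 28 with day 5 at the same threshold, with log2 fold changes of -3.18 to -2.34. Between days 5 and 14 the log2 fold change came to -0.93 (SE 0.37, adjusted p = 0.168). Between days 14 and 28 it came to -2.10 (SE 0.43, adjusted p = 0.10). Both of these depended on which day 14 library was kept. Without replicate 1 the first was -1.90 (adjusted p = 0.000713) and the second -1.12 (adjusted p = 0.0914). Without replicate 2 the first was -0.34 (adjusted p = 0.498) and the second -2.68 (adjusted p = 0.00018). With day 14 cut to 1 library, that library is assumed to vary like the rest.

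Flt1, which encodes VEGFR1 and a soluble form that traps VEGF, is carried by monocytes as well as endothelium (chromosome 5, 147561604 to 147726011). It was low throughout: 1.38, 1.15 and 1.01 FPKM at day 5, 0.718 and 0.755 FPKM at day 14, and 0.311 and 0.974 FPKM at day 28. All 4 later libraries lay below the 3 of day 5, and the day 28 libraries lay on either side of day 14. The log2 fold change from day 5 to day 28 was -0.91 (SE 0.42, adjusted p = 0.17) and was not called. Of the 16 alternatives it was called only without day 28 replicate 2 (-1.91, adjusted p = 0.0223), whereas without day 28 replicate 1 it was -0.27 (adjusted p = 0.608). At gene level the soluble form could not be separated. Kdr exceeded Flt1 7.39-fold to 11.3-fold in the day 5 libraries, 12.03-fold and 3.86-fold at day 14, and 4.49-fold and 1.3-fold at day 28. The ratio was thus lower in both day 28 libraries than in any at day 5.

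Since Kdr is best known from endothelium, endothelial genes were read beside it. Cdh5, which encodes VE-cadherin, was at 1.76, 1.16 and 1.33 FPKM at day 5, 1.21 and 0.988 FPKM at day 14, and 1.82 and 0.768 FPKM at day 28, and was not called from day 5 to day 28 (log2 fold change -0.09, SE 0.36, adjusted p = 0.888). The day 28 libraries lay on either side of the day 5 range. Pecam1, the gene of CD31, was at 11.4, 4.91 and 8.04 FPKM at day 5, 3.51 and 3.28 FPKM at day 14, and 3.01 and 1.52 FPKM at day 28. Its log2 fold change of -1.8 between days 5 and 28 was called (SE 0.37, adjusted p = 0.0145), but not without day 28 replicate 2 (-1.42, adjusted p = 0.0832). Tie1, an endothelial receptor of the angiopoietin system, ran from 0.347 to 0.993 FPKM at day 5 and was at 1.44 and 1.48 FPKM at day 28, with no call (adjusted p = 0.114). Tek, the angiopoietin receptor, was at 0 in 2 libraries and at most 0.267 FPKM, and Emcn, an endothelial sialomucin, was at 0 in 4 libraries and at most 0.328 FPKM. The day 5 libraries held 26.0 to 34.1 FPKM summed over the 10 endothelial markers, those of day 14 held 26.5 and 32.2 FPKM, and those of day 28 held 24.4 and 26.5 FPKM. Eng, which encodes endoglin and is also carried by activated macrophages, gave 14.6 to 24.5 FPKM of each sum, so the sum says little about the other 9. From day 5 to day 28, 2 of the 9 tested were called higher (Tek and Vwf) and 1 lower (Pecam1), beside 7.74% and 7.51% of all genes. The calls of Tek and Vwf were lost without 1 of several libraries (day 5 replicate 2 or 3 or day 28 replicate 1 for Tek, day 5 replicate 1 or 3 or either of day 28 for Vwf, adjusted p = 0.061 to 0.175). The 9 had a median log2 fold change of -0.01. Kdr was 7.36 to 8.55 times Cdh5 at day 5, 7.13 and 2.94 times at day 14, and 0.767 and 1.65 times at day 28. Against Pecam1 it was 1.14 to 1.73 times at day 5, 2.46 and 0.888 times at day 14, and 0.463 and 0.832 times at day 28. Both ratios were lower in the day 28 libraries than in any of day 5, and that to Pecam1 shifted less. The part of endothelial RNA in the fall of Kdr was not tested.

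**Figure D2:**
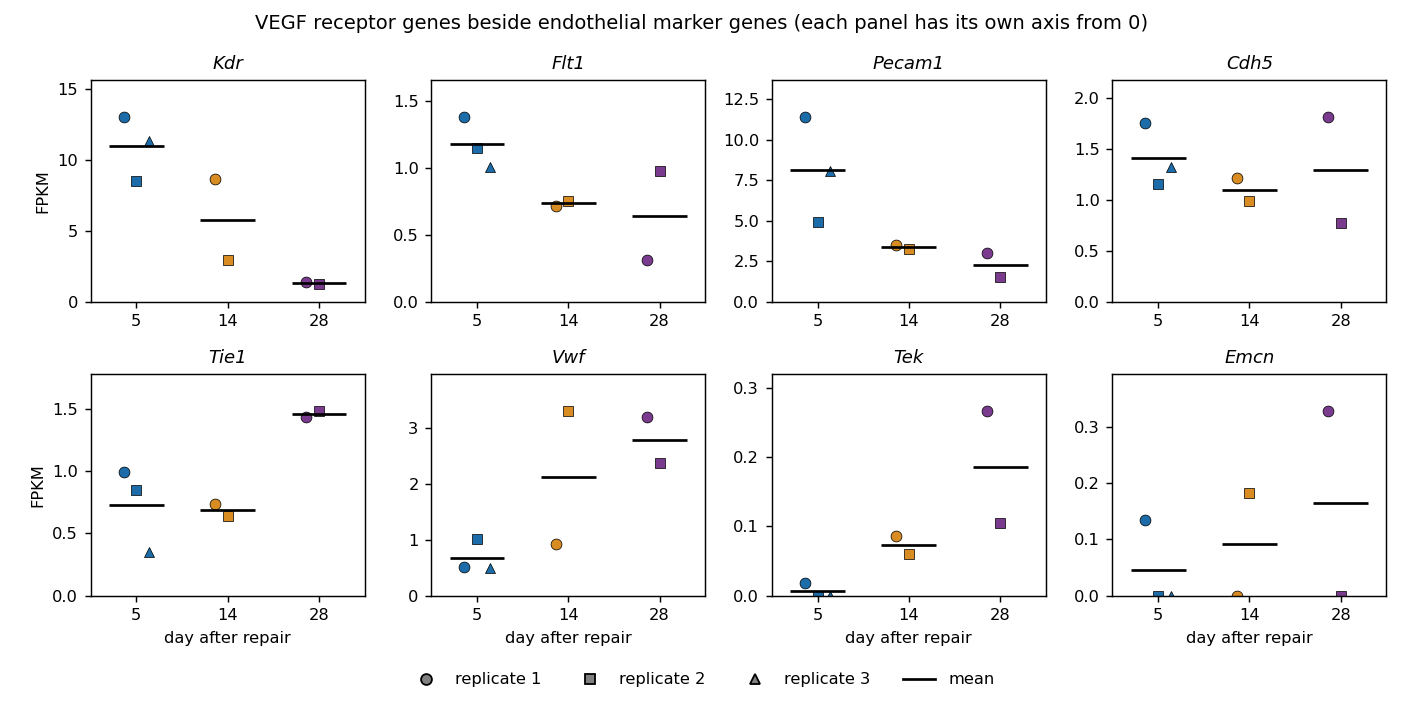
FPKM (vertical axes, each from 0) of the receptor genes Kdr and Flt1 and of 6 endothelial marker genes against the day after repair, with 1 point per library and a line at the mean of each time point. Kdr and Pecam1 are lower in both day 28 libraries than in any of day 5, Cdh5 overlaps between days 5 and 28, and Tie1, Vwf and Tek are higher in both day 28 libraries than in any of day 5.

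The co-receptor genes were abundant and nearly level. Nrp1, which encodes neuropilin 1 (chromosome 8, 128358604 to 128503363), was at 46.3, 50.7 and 56.9 FPKM at day 5, 38.6 and 40.6 FPKM at day 14, and 49.7 and 49.9 FPKM at day 28. The day 14 libraries lay below the rest, and those of day 28 lay within the day 5 range. Its log2 fold changes of -0.36 between days 5 and 14 (SE 0.12, adjusted p = 0.114), 0.33 between days 14 and 28 (SE 0.13, adjusted p = 0.365) and -0.03 between days 5 and 28 (SE 0.12, adjusted p = 0.892) were not called. Nrp2, which encodes neuropilin 2 (chromosome 1, 62703285 to 62818695), was at 77.0, 73.4 and 56.4 FPKM at day 5, 68.9 and 60.6 FPKM at day 14, and 65.4 and 72.3 FPKM at day 28. The 3 time points overlapped. Its log2 fold change from day 5 to day 28 was -0.01 (SE 0.15), with a 95% interval of -0.34 to 0.32. Nrp2 exceeded Nrp1 in 6 of the 7 libraries, by a ratio of up to 1.79.

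Among the hypoxia genes, Egln3 fell early. It encodes the prolyl hydroxylase PHD3, which marks HIF for degradation and is itself induced by HIF (chromosome 12, 54178981 to 54203860, minus strand). It was at 19.1, 18.5 and 23.7 FPKM at day 5, 6.09 and 10.9 FPKM at day 14, and 9.45 and 5.56 FPKM at day 28. Each of the 4 later libraries lay below each of day 5, and days 14 and 28 overlapped. The mean was 20.5 ± 2.83 FPKM (SD, n = 3) at day 5, 8.48 ± 3.38 FPKM (SD, n = 2) at day 14 and 7.50 ± 2.75 FPKM (SD, n = 2) at day 28. It was thus 2.41-fold lower at day 14 (log2 fold change -1.25, SE 0.28, adjusted p = 0.0415, edgeR) and 2.73-fold lower at day 28 than at day 5 (-1.42, SE 0.28, adjusted p = 0.0118). The change from day 14 to day 28 was not called (-0.16, SE 0.30, adjusted p = 0.865). The day 14 call was lost without day 5 replicate 1 (-1.3, adjusted p = 0.105), replicate 2 (-1.32, 0.0963) or replicate 3 (-1.13, 0.118), and the day 28 call without day 28 replicate 2 (-1.11, adjusted p = 0.0745).

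Hif1a, which encodes the oxygen-regulated subunit of HIF-1 (chromosome 12, 73901375 to 73947530), was the next most abundant of the 10 genes after Vegfa at each time point. The libraries held 141, 128 and 104 FPKM at day 5, 95.7 and 74.9 FPKM at day 14, and 93.7 and 70.5 FPKM at day 28. All 4 later libraries were below those of day 5, and days 14 and 28 overlapped. The log2 fold change against day 5 was -0.53 at day 14 (SE 0.18, adjusted p = 0.122) and -0.58 at day 28 (SE 0.18, adjusted p = 0.063), so neither was called. The comparison of day 28 with day 5 was called without day 14 replicate 1 (adjusted p = 0.0216) or replicate 2 (0.0229), and that of day 14 with day 5 without day 14 replicate 1 (-0.71, adjusted p = 0.0398). HIF-1 alpha is controlled mostly as a protein, which these libraries do not measure.

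Adm, which encodes the vessel-relaxing peptide adrenomedullin and is a known HIF target (chromosome 7, 110627661 to 110629820), was low. It was at 1.81, 1.36 and 0.812 FPKM at day 5, 1.73 and 0.868 FPKM at day 14, and 0.965 and 2.201 FPKM at day 28, from 21 to 52 fragments. The time points overlapped. The log2 fold change from day 5 to day 28 was 0.24 (SE 0.54, adjusted p = 0.802), with a 95% interval of -0.97 to 1.44 that does not exclude a 2-fold change either way.

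Over the 10 genes, 1 was called between days 5 and 14 (Egln3), 0 between days 14 and 28, and 2 between days 5 and 28 (Egln3 and Kdr), all lower with time. Among all 12858 genes tested by edgeR, 4.78% were called between days 5 and 14 (1.94% lower), 0.0622% between days 14 and 28, and 15.2% between days 5 and 28 (7.51% lower). With 10 genes, 1 or 2 calls are not far from these shares. At an unadjusted p under 0.05, 4 of the 10 passed in each comparison, including the one with 0 calls, where DESeq2 called 1 (Kdr), and 3083, 1570 and 4046 of all genes passed. The median log2 fold change of the 10 was -0.31, 0.03 and -0.31, against 0.03, 0.01 and 0.03 over all genes tested. Both comparisons with day 5 share its 3 libraries, so they are not independent.

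**Figure D3:**
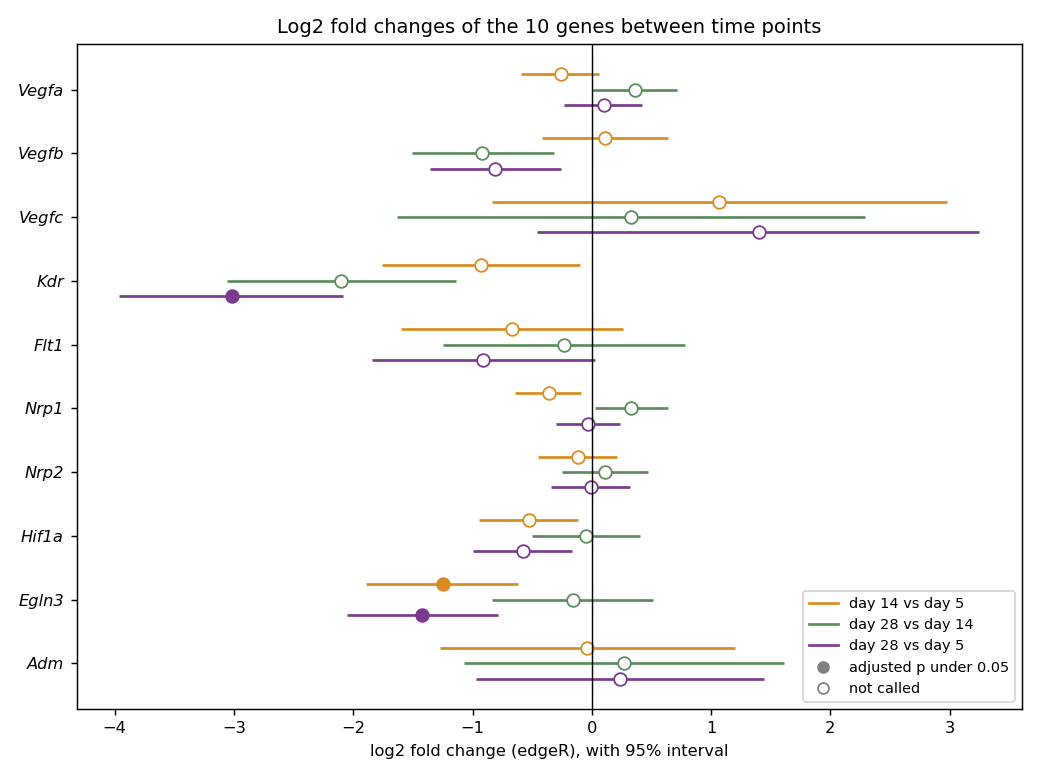
Log2 fold changes fitted by edgeR (horizontal axis, points) of the 10 genes in the 3 comparisons (colours), with 95% intervals as lines. Filled points mark an adjusted p under 0.05: Kdr at -3.02 from day 5 to day 28, and Egln3 at -1.25 (days 5 to 14) and -1.42 (days 5 to 28).

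By mean FPKM the order of levels was led by Vegfa, Hif1a, Nrp2 and Nrp1 at every time point. At day 5 Egln3, Vegfb, Kdr, Adm, Flt1 and Vegfc followed. The libraries overlapped between the neighbours Nrp2 and Nrp1, Egln3 and Vegfb, and Adm and Flt1. At day 14 Vegfb (18.1 FPKM) stood above Egln3 (8.48 FPKM) and Kdr (5.77 FPKM), and only Egln3 and Kdr overlapped as neighbours. At day 28 Kdr (1.33 FPKM) stood below Adm (1.58 FPKM) and overlapped with it, as did Hif1a with Nrp2, Vegfb with Egln3, and Flt1 with Vegfc. Kdr went from rank 5401 of 23361 genes at day 5 to 7239 at day 14 and 10191 at day 28, and Egln3 from 3680 to 6167 and 6539.

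The genes whose log2 CPM (fragments scaled to library size) followed Kdr most closely over the 7 libraries, among 7556 genes compared, were Slc9a9 (r = 0.996), Rnf130 (r = 0.994) and Lgmn (r = 0.993), which encode an endosomal sodium/proton exchanger, a ubiquitin ligase and the lysosomal protease legumain. Lgmn was at 2110, 1873 and 2033 FPKM at day 5, 1737 and 1238 FPKM at day 14, and 947 and 1019 FPKM at day 28. As for Kdr, the higher of the day 14 libraries was replicate 1. Those closest to Egln3 were Fbxl5 (r = 0.985), which encodes an iron-sensing ubiquitin ligase subunit, and the glycolytic genes Eno1 (r = 0.981) and Gapdh (r = 0.978). These correlations are a description over 7 libraries in 3 time points, which share library and depth.

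The genes that control HIF were next to be read. Of 8 listed (Epas1, Hif3a, Arnt, Arnt2, Vhl, Egln1, Egln2 and Hif1an), 6 were tested, and Hif3a and Arnt2 were at or near 0. By edgeR 0 were called between days 5 and 14 and 0 between days 14 and 28, and 3 were called lower at day 28 than at day 5, beside 7.51% of all genes. That count was 1 without day 28 replicate 1, and 2 without day 28 replicate 2 or day 5 replicate 1 or 3. At an unadjusted p under 0.05, 3 and 2 of the 6 passed in the comparisons without calls, where DESeq2 called 1 and 0 and limma 0 and 0. Egln2, a prolyl hydroxylase, was at 46.9, 41.0 and 37.0 FPKM at day 5, 33.1 and 27.8 FPKM at day 14, and 19.1 and 22.8 FPKM at day 28, with no overlap between the time points, and fell by 0.98 on the log2 scale from day 5 to day 28 (SE 0.14, adjusted p = 0.00384). Egln1, the main prolyl hydroxylase in most cells, fell from 33.4 to 39.0 FPKM to 25.4 and 21.9 FPKM (log2 fold change -0.62, SE 0.13, adjusted p = 0.0144). Epas1, which encodes HIF-2 alpha, fell from 4.39 to 5.72 FPKM to 2.75 and 3.17 FPKM (-0.74, SE 0.15, adjusted p = 0.0137). With Egln3, all 3 HIF prolyl hydroxylase genes were called lower at day 28 than at day 5. The call of Egln1 was lost without day 5 replicate 1 or 3 or without either day 28 library (adjusted p = 0.0552 to 0.0813), and that of Epas1 without day 28 replicate 1 (0.115).

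A list of 32 other known HIF targets, mostly of glycolysis and mitochondrial adaptation, was tested in full. The list was drawn up with earlier results of these data known. From day 5 to day 14, 9 were called lower and 0 higher, and from day 5 to day 28, 15 were called lower and 1 higher, beside the 1.94% and 7.51% of all genes called lower. From day 14 to day 28, 0 were called by edgeR, DESeq2 or limma, and 6 passed at an unadjusted p under 0.05. The median log2 fold change of the list was -0.43, -0.05 and -0.49 in the comparisons of day 14 with 5, day 28 with 14 and day 28 with 5. Slc16a3, which encodes the lactate exporter MCT4, was at 257, 233 and 259 FPKM at day 5, 124 and 143 FPKM at day 14, and 110 and 99.99 FPKM at day 28. It did not overlap between time points, and fell by 0.90 on the log2 scale by day 14 (SE 0.13, adjusted p = 0.0133) and by 1.23 by day 28 (SE 0.13, adjusted p = 0.00101). Bnip3, which encodes a receptor for mitophagy, was at 76.9 to 89.1 FPKM at day 5, fell to 43.0 and 40.1 FPKM at day 14 (-1.01, SE 0.17, adjusted p = 0.0185) and was at 42.9 and 29.0 FPKM at day 28 (-1.21, SE 0.17, adjusted p = 0.00302). Ddit4, an inhibitor of mTOR signalling, fell from 39.8 to 45.7 FPKM to 24.4 and 14.5 FPKM at day 14 (-1.11, SE 0.19, adjusted p = 0.0209). Pdk1, which restrains the entry of pyruvate into mitochondria, was lower at day 28 than at day 5 (-1.06, SE 0.27, adjusted p = 0.0309). The exception was Bhlhe40, a transcriptional repressor induced by many stimuli, which rose from 115 to 131 FPKM at day 5 to 231 and 209 FPKM at day 28 (0.87, SE 0.16, adjusted p = 0.00955), a call lost without day 28 replicate 1 (adjusted p = 0.086). So the most abundant HIF target of the set, Vegfa, and the low Adm were not called, whereas Egln3 was called in the same direction as the called majority of the list. Without day 5 replicate 1 or 3, the day 14 calls of Slc16a3, Bnip3 and Ddit4 were lost (adjusted p = 0.0552 to 0.0717), that of Ddit4 also without day 5 replicate 2 (0.0657), and the day 28 call of Pdk1 was lost without any 1 of the day 5 or day 28 libraries (0.0724 to 0.155). The count of 9 at day 14 fell to 0, 2 and 0 without day 5 replicate 1, 2 or 3. The count of 15 at day 28 fell to 6 or 7 without any 1 of the day 5 or day 28 libraries. By DESeq2, 17 were called lower at day 14 and 20 at day 28, and by limma on log2(FPKM + 1), 6 and 15.

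**Figure D4:**
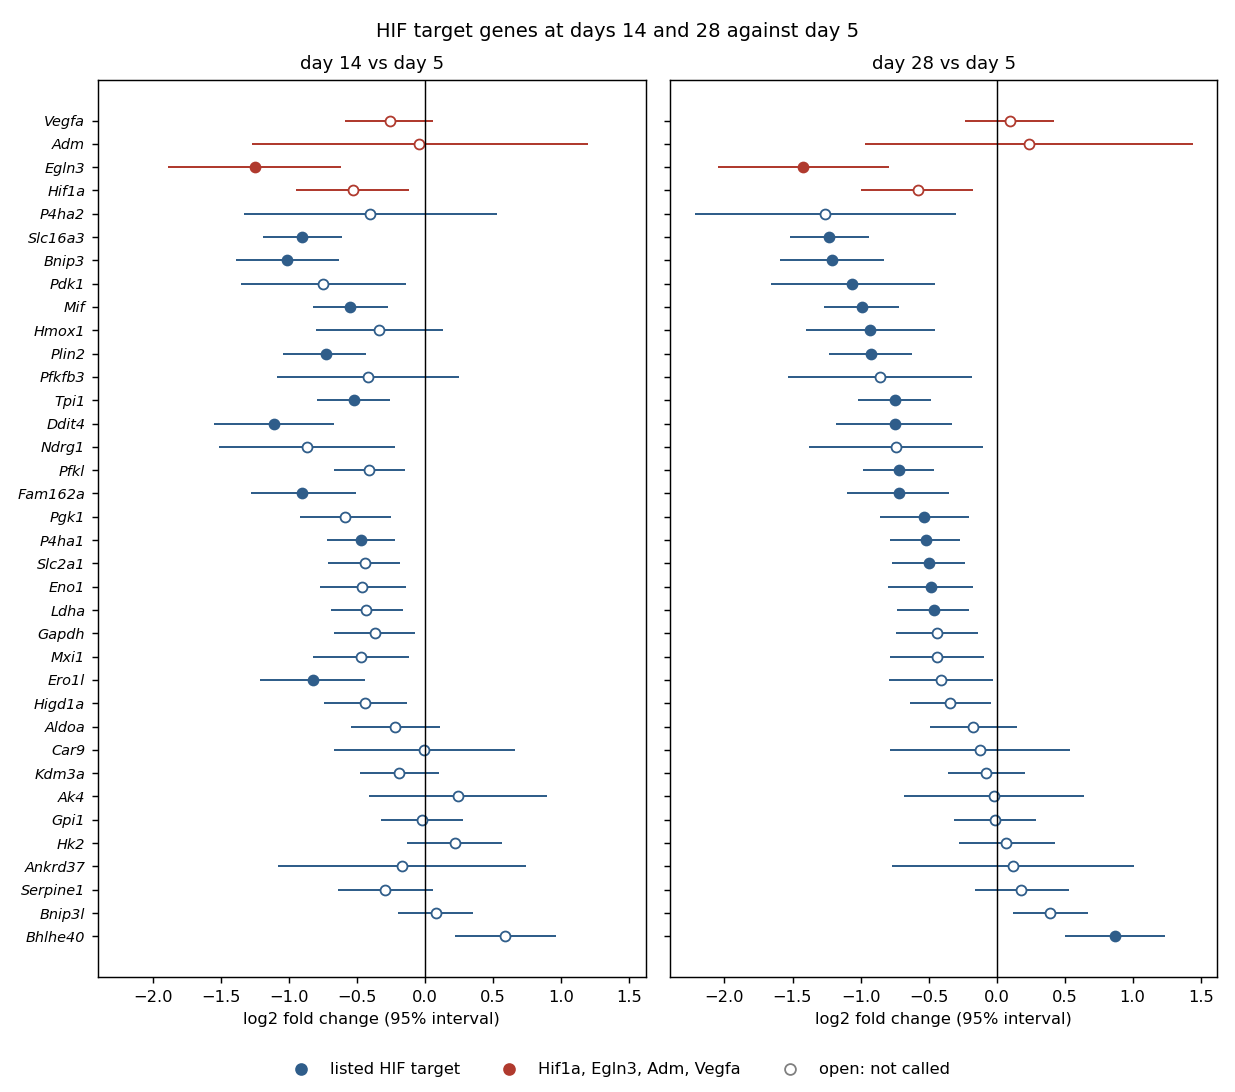
Log2 fold changes fitted by edgeR (horizontal axes), with 95% intervals, of the 32 listed HIF targets (blue) and of Vegfa, Adm, Egln3 and Hif1a (red) at day 14 (left) and day 28 (right) against day 5. Filled points mark an adjusted p under 0.05: of the 32 targets, 9 are filled on the left, all below 0, and 16 on the right, 15 below 0 and Bhlhe40 above it.

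Further partners of the 10 genes were read from 4 lists. Of the other VEGF family genes (Pgf, Figf and Flt4), 2 were tested and 0 were called by edgeR in any comparison, although 1 passed at an unadjusted p under 0.05 and 1 by DESeq2 at day 28 against day 5, with 0 by limma. Pgf, which encodes placental growth factor, a ligand of Flt1, was at 12.2, 6.25 and 9.25 FPKM at day 5, 7.72 and 1.63 FPKM at day 14, and 2.90 and 3.68 FPKM at day 28 (log2 fold change from day 5 to day 28 -1.39, SE 0.53, adjusted p = 0.108), Figf reached at most 0.561 FPKM, and Flt4 was not tested. Calcrl and Ramp1 to Ramp3 were listed for the adrenomedullin receptor, and 3 of them were tested, with Ramp2 not tested. At day 14, 1 was called higher than at day 5, and at day 28, 2 were, beside 2.84% and 7.74% of all genes. Ramp1 and Ramp3 encode proteins that set the ligand preference of the receptor Calcrl. A call of Ramp1 alone therefore does not mean a change of the adrenomedullin receptor. Ramp1 rose from 0.647 to 0.703 FPKM at day 5 to 1.76 and 2.73 FPKM at day 14 (1.39, SE 0.28, adjusted p = 0.0326) and 1.796 and 2.39 FPKM at day 28 (1.28, SE 0.28, adjusted p = 0.0176). Ramp3 was not called at day 14 (1.19, SE 0.35, adjusted p = 0.0823). It rose from 2.90 to 4.79 FPKM at day 5 to 9.26 and 8.81 FPKM at day 28 (1.29, SE 0.35, adjusted p = 0.037). The Ramp3 call was lost without any 1 of the day 5 or day 28 libraries (adjusted p = 0.059 to 0.172). The Ramp1 calls were lost without any 1 of the day 5 libraries, that at day 14 also without day 14 replicate 2 and that at day 28 also without day 28 replicate 1 (adjusted p = 0.0529 to 0.118).

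Of 12 semaphorin and plexin genes, whose proteins share the neuropilins with VEGF, 8 were tested. From day 5 to day 14 only Plxna4 was called, and from day 5 to day 28 Plxna4 and Plxnd1, all higher, beside the same shares. Plxnd1, a receptor of semaphorin 3E, rose from 36.3 to 44.5 FPKM to 53.5 and 63.4 FPKM at day 28 (0.52, SE 0.13, adjusted p = 0.0277). The Plxnd1 call was lost without any 1 of the day 5 or day 28 libraries (adjusted p = 0.0562 to 0.133). Plxna4 was at most 0.734 FPKM, and its day 14 call was lost without any 1 of the day 5 libraries (0.0557 to 0.0852).

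Of 15 other angiogenic factors, 13 were tested, and 2 were called higher and 1 lower at day 14, and 2 higher and 5 lower at day 28, against day 5. Of all genes, 2.84% were called higher and 1.94% lower at day 14, and 7.74% higher and 7.51% lower at day 28. Igf1, a growth factor for many cells, rose from 12.7 to 16.7 FPKM to 29.8 and 25.1 FPKM at day 14 (0.92, SE 0.15, adjusted p = 0.0184) and to 30.6 and 31.7 FPKM at day 28 (1.07, SE 0.15, adjusted p = 0.0028). Pdgfb, a factor that recruits pericytes, rose from 24.6 to 26.3 FPKM to 41.2 and 44.8 FPKM at day 14 (0.77, SE 0.12, adjusted p = 0.0184). Angpt2, an antagonist ligand of Tek, fell from 2.04 to 2.2 FPKM to 0.674 and 0.849 FPKM at day 14 (-1.47, SE 0.25, adjusted p = 0.0197). At day 28 it was at 1.59 and 2.15 FPKM (log2 fold change against day 5 -0.19, SE 0.23, adjusted p = 0.615). Mmp9, a matrix protease, fell from 30.8 to 47.5 FPKM at day 5 to 12.3 and 13.4 FPKM at day 28 (-1.69, SE 0.22, adjusted p = 0.00215), and Thbs1, an inhibitor of vessel growth, from 234 to 337 FPKM to 74.3 and 97.0 FPKM (-1.73, SE 0.45, adjusted p = 0.0331). The day 14 calls of Pdgfb and Angpt2 were lost without any 1 of the day 5 libraries (adjusted p = 0.0616 to 0.0731), that of Igf1 without day 5 replicate 1 or 3 (0.0682 and 0.0691), and the day 28 call of Thbs1 without any 1 of the day 5 or day 28 libraries (0.0614 to 0.213).

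Marker genes of other cells moved with time as well. Summed FPKM of 6 fibroblast markers was 27.8 to 72.0 at day 5, 222 and 80.2 at day 14 and 34.9 and 56.1 at day 28, and that of 6 neutrophil markers 333 to 356, 598 and 583, and 293 and 153. Summed over 6 dendritic cell markers, the libraries of day 5 held 14.6 to 31.1 FPKM, those of day 14 held 58.8 and 181 FPKM, and those of day 28 held 313 and 297 FPKM, of which Itgax alone gave 294 and 267 FPKM at day 28. The 8 macrophage markers summed to 5430 to 5946 FPKM at day 5 and to 3597 and 4035 FPKM at day 28. T cell, B cell, pericyte and Schwann cell lists reached at most 19.94 FPKM in sum. Thus day 14 replicate 1 held the highest fibroblast sum, and the macrophage sum was lower in all 4 later libraries (at most 4428 FPKM) than at day 5. Cd14 alone gave 2635 to 3003 FPKM of that sum at day 5 and 1433 and 1799 FPKM at day 28. Of the 8 macrophage markers, 3 were called lower and 0 higher at day 28 against day 5, beside 7.51% and 7.74% of all genes. Csf1r (log2 fold change 0.11) and Fcgr3 (0.12) had estimates above 0 and were not called. The part of these shifts in the changes of Kdr and Egln3 was not tested.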

How the data were processed

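Single-end reads were trimmed by the authors (cutadapt 1.8), aligned to mm10 (TopHat2 2.0.13) and summed over genes with Cuffdiff 2.2.1. They deposited 3 values per gene and library: expected counts (fragments before scaling), the same count brought to a common library size, a scaled signal used here only for scaling checks, and FPKM values, which the authors adjusted for transcript length. The sharing of multi-mapping reads and the use of strand are not given in the sources used here, so values of overlapping genes are uncertain. The quantification status was a failure in 8 values of 4 genes, and in 0 of the 10 genes.

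Expected counts were rounded (0.864% of values were not whole within 0.001) and tested in R 4.3.3 with edgeR 4.0.16 (quasi-likelihood test, TMM scaling, genes filtered on counts per time point, 2-sided). The fit took in all 7 libraries with the time point as its factor, and p-values were adjusted by Benjamini-Hochberg over 12858 genes. A call means an adjusted p under 0.05. SEs were derived from the fold change and its F value, and 95% intervals from the fit's degrees of freedom. Each adjusted p in the results is from this fit, or, where a library is said to be left out, from the same fit without it. In simulated counts for day 14 against day 5 (12858 genes, 200 changed by 2 on the log2 scale), edgeR recovered 167 (83.5%) with 10 false calls. Same-day libraries differed beyond sampling noise, so none repeated the counts of another. That does not exclude libraries prepared separately from the same RNA.

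The replicate numbers come from the labels, which do not say that a number marks a shared batch. The deviations of same-numbered libraries correlated at 0.196 (days 5 and 14), -0.119 (days 14 and 28) and -0.001 (days 5 and 28), so the numbers were not taken as pairs.

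Alternatives were DESeq2 1.42.0, RLE and Cuffdiff scaling, no expression filter, limma 3.58.1 on log2(FPKM + 1) or log2(FPKM + 0.1), 2 time points alone, a replicate block, each library left out, and an adjusted p under 0.01. A block with the day 28 numbers swapped, and the counts and genes of the HIF lists and of other lists under each alternative, were added after the data were seen. The members and gene lists were chosen with earlier results of these data known. By rule, all 10 genes were named, and of each list and comparison the 3 called genes with the largest fold change, the endothelial markers Pecam1, Cdh5, Tek, Tie1 and Emcn, and the 3 genes most correlated with each called member. Other names, such as Bhlhe40 and Pgf, were chosen after their values were seen. One listed marker, Ly6g, was not analysed here. Coordinates are from GENCODE on GRCm38, and promoters from RefSeq on GRCm38.p6.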

Additional observations from a re-analysis of the deposited data

How the results depend on the processing

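Kdr was called at day 28 against day 5 in 16 of 16 alternatives at the same threshold, with adjusted p from 2.68e-08 to 0.047, and Egln3 in 14 of 16 (log2 fold change -1.87 to -1.11). Egln3 at day 14 was called in 9 of 16 (-1.74 to -0.90, adjusted p 0.000133 to 0.154), Hif1a and Vegfb at day 28 in 6 of 16 each. The cause of the differences between methods was not tested. Of the 10 genes, the number called at day 14 against day 5 (1) was 2 by DESeq2, 3 without the filter, 0 by limma with either pseudocount, 0 with 2 time points alone, 0 at an adjusted p under 0.01 and 0 to 3 with a library left out. At day 28 against day 14 (0) it was 1 by DESeq2, 2 without the filter and 0 to 2 with a library left out. At day 28 against day 5 (2) it was 4 by DESeq2, 4 without the filter, 4 with 2 time points alone, 1 at an adjusted p under 0.01 and 2 to 4 with a library left out, with 4 when either day 14 library was removed. Over all genes, the 614 calls at day 14 against day 5 became 1308 by DESeq2, 1429 without the filter, 252 and 277 by limma with pseudocounts of 1 and 0.1, 315 with 2 time points alone, 24 at an adjusted p under 0.01, and 52 (without day 5 replicate 3) to 1728 (without day 14 replicate 1) with a library left out. The 8 calls at day 28 against day 14 became 336 by DESeq2, 390 without the filter, 0 by limma with either pseudocount, 0 with 2 time points alone, 0 at an adjusted p under 0.01, and 0 to 629 (without day 14 replicate 2). The 1960 at day 28 against day 5 became 597 at an adjusted p under 0.01, and 452 (without day 28 replicate 1) to 2746 (without day 14 replicate 1).

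With the replicate block, 0, 0 and 2 of the 10 genes were called (Hif1a and Kdr, not Egln3, at adjusted p = 0.0686), and 6, 0 and 735 genes of all. The numbers only name the libraries, so a call lost under the block is not read as a weaker effect. With the day 28 numbers swapped in the block, chosen after seeing the data, 1, 0 and 3 of the 10 were called, and 357, 63 and 1579 genes of all.

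Among 475 values for the 10 genes under the alternatives, 419 kept direction and side of the threshold, 23 gained a call, 9 lost one and 24 changed sign, none of them a called value. For day 28 against day 5, the sign changed for Nrp1 (0.05 with either block) and Adm (-0.01 with the block, -0.09 with the swapped block), and for Nrp2 (0.01 by limma with either pseudocount). With a library left out, ranges that crossed 0 were, at day 14 against day 5, Vegfb -0.24 to 0.40 and Adm -0.60 to 0.39. At day 28 against day 14 they were Vegfc -0.92 to 1.06, Flt1 -1.24 to 0.40, Hif1a -0.28 to 0.14, Egln3 -0.62 to 0.33 and Adm -0.42 to 0.84. At day 28 against day 5 they were Vegfa -0.04 to 0.21, Nrp1 -0.10 to 0.06, Nrp2 -0.13 to 0.07 and Adm -0.45 to 0.74. Leaving out a day 14 library moved Kdr from -1.90 to -0.34 (day 14 against day 5) and from -2.68 to -1.12 (day 28 against day 14), and leaving out a day 28 library moved Flt1 at day 28 against day 5 from -1.91 to -0.27. The HIF targets called lower numbered 0 to 17 at day 14 and 7 to 20 at day 28 over the alternatives that kept all libraries compared (0 and 7 with the replicate block, where the HIF regulators called lower at day 28 numbered 1). Vegfc, Adm and Flt1 rested on 3 to 18, 21 to 52 and 73 to 205 fragments per library.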
